A study of Mus musculus with 10 samples.

Results

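Primary hepatocytes from C57BL/6 mice were exposed for 24 h to 1 of 2 free fatty acids, and the libraries treated with palmitate (PA) were compared with those treated with linoleate (LA). The members were all libraries that the labels title PA or LA and that received no Neurotropin (NTP), which made 4 of the 10 libraries of the series, 2 per fatty acid. PA was given at 200 µM and LA at 12 µM, so that the kind of fatty acid and its dose cannot be told apart in any value below. The other groups used here were Vehicle (no fatty acid and no NTP), PA+NTP and LA+NTP, again with 2 libraries each, in which NTP, an extract used as an analgesic, was added 1 h ahead of the same fatty acid at the same dose. All cells came from wild-type animals by collagenase perfusion and were kept on collagen-coated plates, and the sources used here do not say whether the 2 libraries of a group came from separate animals or cultures, so the p-values measure only the spread between these libraries, which may be technical.

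Palmitate is the most abundant saturated fatty acid of plasma, and linoleate is an essential polyunsaturated fatty acid of the omega-6 family. Hepatocytes esterify both into triglycerides, oxidize them in mitochondria and peroxisomes, and use them as substrates or ligands for desaturases, elongases and nuclear receptors such as PPARα. Saturated fatty acids in excess are known for lipotoxic stress, which includes the unfolded protein response of the endoplasmic reticulum (ER) and inflammatory signaling through NF-κB, a transcription factor that drives cytokine and chemokine genes.

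The deposited tables give each gene an expected count and an FPKM (fragments scaled to the length of the transcript and the total of the library), a level that can be compared between genes. The PA libraries held 13142588 and 39052570 expected counts and the LA libraries 32312383 and 23696170. The hepatocyte markers albumin and transferrin were abundant in all 4 libraries, whereas the marker Pck1, given further on, was scarce. Albumin (Alb) was measured at 2124 and 1929 FPKM in PA and at 2467 and 2540 FPKM in LA, and transferrin (Trf) at 2755 and 2638 FPKM in PA and at 2765 and 2857 FPKM in LA. Cyp7a1, the rate-limiting enzyme of bile acid synthesis, reached at most 0.02 FPKM and G6pc, the last enzyme of gluconeogenesis, at most 0.19 FPKM in these 4 libraries, and neither passed the filter on low counts. The deviation of a library from the mean of all libraries fell with the GC content of the genes in PA (Spearman rho across genes of -0.46 and -0.47) and in LA (-0.55 in both libraries), whereas it rose in the 6 other libraries (0.33 to 0.56), so that values set against Vehicle carry this difference while those between PA and LA carry little of it. Across genes, the log2 fold change between PA and LA correlated with GC content at a rho of only 0.08.

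In edgeR's quasi-likelihood test, 167 genes were higher in PA and 288 genes were higher in LA with a difference of 1.5-fold or more and an adjusted p (Benjamini-Hochberg) below 0.05. These made 1.18% and 2.04% of the 14097 genes tested, which is the background for every count of members below. Log2 fold changes are written as PA minus LA, and SE stands for their standard error. The PA and LA libraries did not overlap in counts scaled to the library total for 454 of the 455 genes called, and neither did they for 52.2% of all genes tested, so that non-overlap of 2 against 2 libraries was common. The exception was Fam177a, which stood at 5.28 FPKM in 1 PA library and was not listed for the other. It shares 98.5% of its 31-base words with other genes. Of the genes called, 81 higher in PA and 113 higher in LA differed at least 2-fold, and 36 and 22 at least 4-fold. Without the fold threshold, 788 genes passed as higher in PA and 781 as higher in LA. The counts rested in part on single libraries: leaving out the second PA library left 99 genes higher in PA and 142 higher in LA, leaving out the first LA library left 115 and 159, and leaving out the second LA library left 101 and 228.

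**Figure D1:**
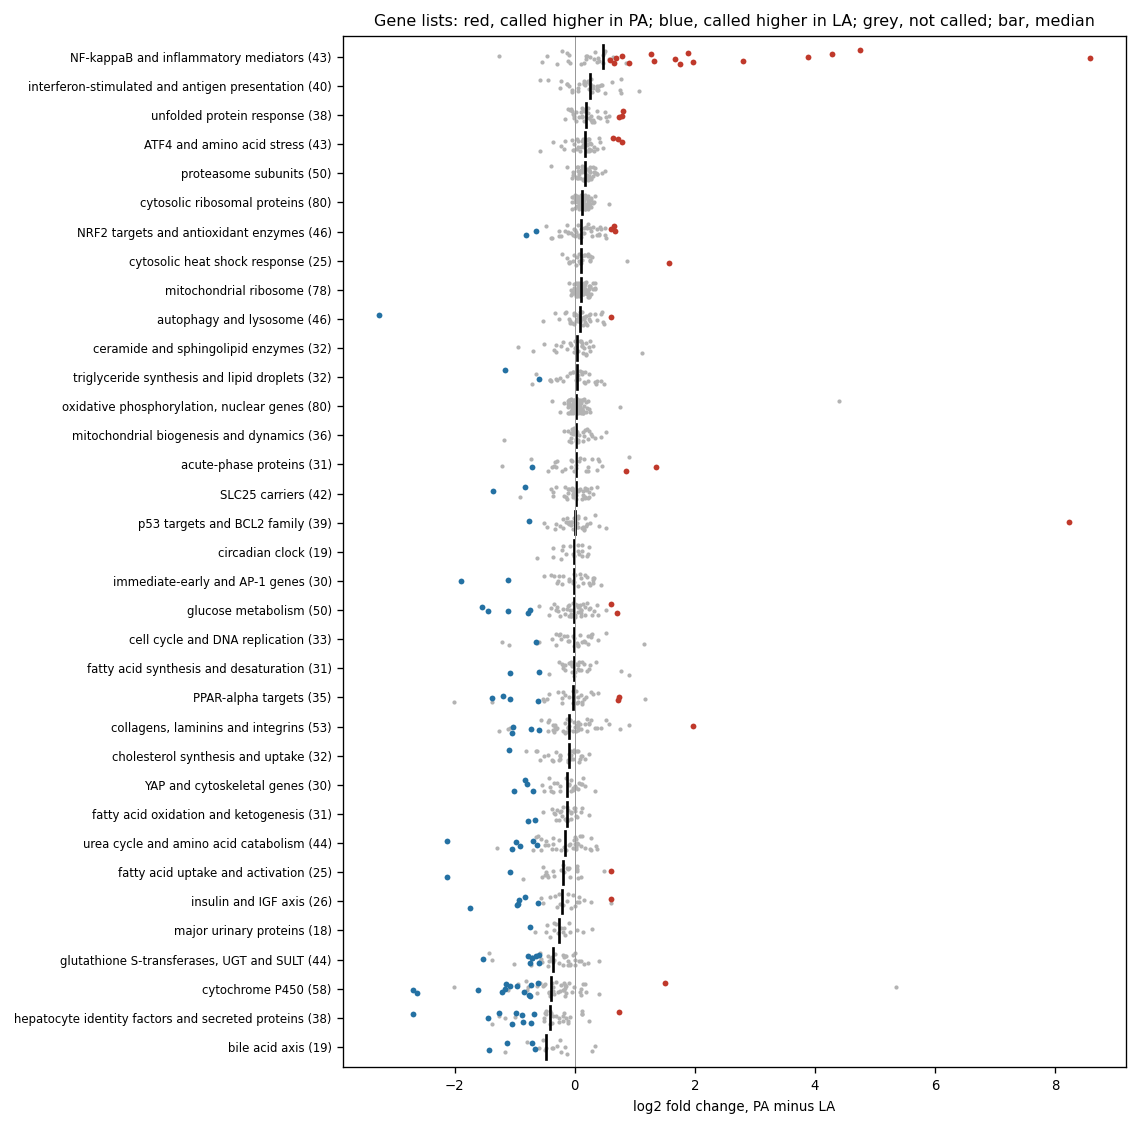
Log2 fold change of PA minus LA (x axis) for the tested members of 35 gene lists (y axis, number tested in parentheses), with a bar at the median of each list. Members called higher in PA (red) gather in the list of NF-κB and inflammatory mediators (16 of 43), and members called higher in LA (blue) in the cytochrome P450 (13 of 58) and hepatocyte (9 of 38) lists.

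Of 43 tested genes of the NF-κB and inflammatory list, 16 (37.2%) were higher in PA and 0 were higher in LA, with a median log2 fold change of 0.47 for the list against 0.01 for all genes tested. They comprised the chemokines Ccl2, Ccl3, Ccl4, Ccl5, Ccl7, Cxcl2 and Cxcl5, the cytokines Il1a, Il1b, Il6 and Tnf, the adhesion molecule Vcam1, and the feedback inhibitors Il1rn, Nfkbie, Tnfaip3 and Tnip1. The count stayed between 11 and 16 in every alternative fit, and without any 1 of the 4 PA and LA libraries it was 13.

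Of these 16 genes, 10 have an entry in the RefSeq promoter table (GRCm38.p6, 250 bases before to 50 after a gene's start). Among the 10, 5 held a match to the NF-κB consensus on either strand, against 5.14% of all 27025 genes with an entry. The list was drawn up around NF-κB, and its members that were not called were not searched. This motif was added after the values had been seen. A match is a sequence feature of the window and no evidence of binding. The stretches upstream of the start sites are given 5′ to 3′ along the gene's strand, with the matched bases in capitals, to show where the consensus lies in genes that separated the fatty acids.
Cxcl2, chr5:90903762-90903852, plus strand: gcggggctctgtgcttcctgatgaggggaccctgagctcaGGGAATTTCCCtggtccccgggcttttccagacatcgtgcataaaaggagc
Il6, chr5:30013030-30013113, plus strand: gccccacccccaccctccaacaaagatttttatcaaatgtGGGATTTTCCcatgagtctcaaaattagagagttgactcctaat
Nfkbie, chr17:45555554-45555643, plus strand: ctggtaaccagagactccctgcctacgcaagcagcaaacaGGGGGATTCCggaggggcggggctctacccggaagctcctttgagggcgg
Tnip1, chr11:54962947-54963038, minus strand: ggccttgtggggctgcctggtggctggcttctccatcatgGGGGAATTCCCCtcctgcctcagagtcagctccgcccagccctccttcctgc
The matches of Cxcl2 and Tnip1 comprise 2 and 3 overlapping occurrences. Tnfaip3 held 2 separate matches in its window.

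Ccl2 (NCBI gene 20296, chr11:82035577-82037452), the chemokine that draws monocytes through CCR2, was the most abundant of the called mediators. It was measured at 393 and 411 FPKM in PA and at 169 and 162 FPKM in LA, beside 162 and 158 FPKM in Vehicle. Both PA libraries thus lay above all LA and Vehicle libraries, by a log2 fold change of 1.27 (SE 0.06, edgeR adjusted p = 3.7e-08), and the LA libraries lay at or just above those of Vehicle. Ccl7 (chr11:82045712-82047525), its neighbor on the chromosome and a ligand of the same receptor, was found at 6.48 and 6.12 FPKM in PA and at 1.56 and 1.61 FPKM in LA. Its log2 fold change was 1.97 (SE 0.22, edgeR adjusted p = 7.8e-05), with Vehicle in between at 2.15 and 2.71 FPKM.

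The CXC chemokines Cxcl1, Cxcl2 and Cxcl5 attract neutrophils through CXCR2. Cxcl5 was nearly silent in LA (0.15 and 0.17 FPKM) and in Vehicle (0.19 and 0.07 FPKM) and was measured at 3.74 and 2.87 FPKM in PA, a log2 fold change of 4.29 (SE 0.49, edgeR adjusted p = 9.9e-05). Cxcl2 stood at 3.85 and 3.35 FPKM in PA against 1.04 and 1.03 FPKM in LA (log2 fold change 1.76, SE 0.26, edgeR adjusted p = 0.00064). Cxcl1, a more abundant ligand of the same receptor at 88.3 and 83.7 FPKM in PA, differed from LA (65.5 and 56.1 FPKM) by less than the fold threshold (log2 fold change 0.48, SE 0.08, edgeR adjusted p = 0.0011). The level of Cxcl1 in Vehicle was lower still, at 46.3 and 47.6 FPKM. Without the first LA library the fold of Cxcl1 passed the threshold (0.60).

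Ccl3, an attractant of macrophages and lymphocytes, was measured at 7.1 and 6.94 FPKM in PA and at 1.23 and 0.70 FPKM in LA (log2 fold change 2.80, SE 0.33, edgeR adjusted p = 0.00013). Vehicle covered the range of LA, at 1.63 and 0.62 FPKM. The RefSeq spans of Ccl3 and Ccl4 overlap on chromosome 11, and Ccl4 was higher in PA too, at 1.05 and 1.46 FPKM against 0.10 and 0.06 FPKM in LA (log2 fold change 3.88, SE 0.70, edgeR adjusted p = 0.003). Without the second PA library the adjusted p of Ccl4 was 0.064 at a log2 fold change of 3.57.

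The cytokines themselves were scarce. Il6 reached 1.14 and 1.65 FPKM in PA and 0.09 and 0 FPKM in LA, which rested on 85 and 3 counts over the 2 libraries of each group. After library size, the ratio was 30.4, with an exact 95% interval of 10.1 to 150 that covers counting error only (edgeR adjusted p = 0.00068). Il1b was listed at 1.56 and 0.86 FPKM in PA and in neither LA library, with 71 counts over both PA libraries. Taking 3 counts over the LA group as the most that a count of 0 allows, Il1b was at least 25.4-fold higher in PA, and it stood at 0.12 and 0.06 FPKM in Vehicle. Tnf was found at 1.46 and 0.97 FPKM in PA and at 0.27 and 0.37 FPKM in LA (log2 fold change 1.88, SE 0.40, edgeR adjusted p = 0.008), and the adjusted p was 0.09 without the first LA library.

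**Figure D2:**
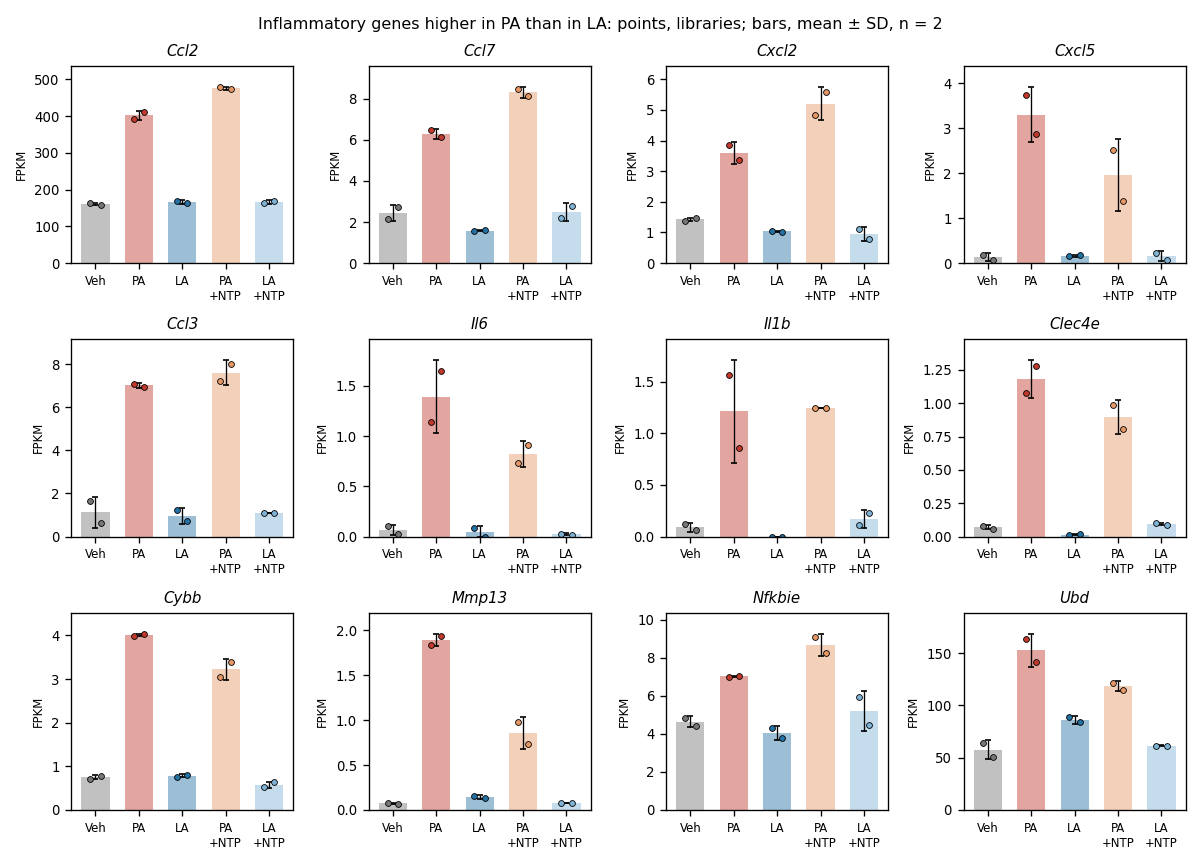
FPKM (y axis, linear and from 0 in each panel) of 12 inflammatory genes in the 5 groups (x axis), with points for the 2 libraries and bars for the mean ± SD. The genes were picked from those called higher in PA, so that the order of PA and LA follows from the choice. In each panel both PA libraries lie above both LA libraries, as with Ccl2 at 393 and 411 against 169 and 162 FPKM. In these picked genes both PA+NTP libraries lie above both LA+NTP libraries, while 86 of all 167 genes higher in PA were called again with NTP.

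The feedback inhibitors of the pathway moved by less. Nfkbie, an inhibitor that retains NF-κB in the cytosol, was measured at 7.01 and 7.04 FPKM in PA and at 4.30 and 3.77 FPKM in LA (log2 fold change 0.78, SE 0.14, edgeR adjusted p = 0.0023). Tnip1, a partner of the ubiquitin-editing protein A20, stood at 34.9 and 31.8 FPKM in PA and at 19.8 and 21.2 FPKM in LA. Its log2 fold change was 0.68 (SE 0.07, edgeR adjusted p = 4.2e-05), although Vehicle (28.1 and 30.7 FPKM) lay nearer to PA. Nfkbia, Icam1 and Cxcl16 passed the adjusted p but missed the fold threshold, with log2 fold changes of 0.40, 0.57 and 0.51.

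Vcam1, an adhesion molecule for leukocytes, was measured at 9.29 and 8.94 FPKM in PA and at 5.29 and 4.29 FPKM in LA (log2 fold change 0.90, SE 0.10, edgeR adjusted p = 0.00011).

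Clec4e, the receptor Mincle, was measured at 1.08 and 1.28 FPKM in PA and at 0.01 and 0.02 FPKM in LA, and its 162 counts over the PA libraries against 2 over the LA libraries gave a ratio of 86.9 (exact 95% interval 23.7 to 724, counting error only). Cybb and Acod1 were chosen after their values were seen. Cybb, the catalytic subunit of the phagocyte NADPH oxidase, was found at 3.99 and 4.03 FPKM in PA and at 0.76 and 0.81 FPKM in LA (log2 fold change 2.34, SE 0.14, edgeR adjusted p = 3.9e-07). Acod1, which makes itaconate, stood at 1.58 and 1.39 FPKM in PA and at 0.24 and 0.26 FPKM in LA (log2 fold change 2.55, SE 0.29, edgeR adjusted p = 8.3e-05). Cd68, a lysosomal protein, was abundant in every group, at 195 and 232 FPKM in PA, 122 and 126 FPKM in LA and 203 FPKM in both Vehicle libraries. The gene was thus lower in LA than in both other groups, and PA lay around Vehicle (PA minus LA 0.78, SE 0.08, edgeR adjusted p = 5.1e-05).

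Markers of other liver cells were read beside these results, since fewer cells of a type and less RNA per cell cannot be told apart in bulk libraries. Of 18 Kupffer cell and macrophage markers, 14 were tested, 2 were higher in PA (Cd68 and Marco) and 1 was higher in LA (Cd5l). Their summed level was 223 to 257 FPKM in PA, 144 to 148 FPKM in LA and 222 to 224 FPKM in Vehicle, of which Cd68 made the greater part. None of the 18 was at 0 in all 4 libraries, but Clec4f, which defines resident Kupffer cells, reached only 0.03 and 0.05 FPKM in PA and 0.14 and 0.18 FPKM in LA. Adgre1 (F4/80) was measured at 1 and 0.52 FPKM in PA and at 0.37 and 0.45 FPKM in LA (edgeR adjusted p = 0.18). The scavenger receptor Marco stood at 3.95 and 2.90 FPKM in PA and at 0.42 and 0.94 FPKM in LA (log2 fold change 2.34, SE 0.32, edgeR adjusted p = 0.00037), whereas Cd5l, a macrophage-secreted protein, was lower in PA (1.16 and 1.31 FPKM) than in LA (2.66 and 2.69 FPKM, log2 fold change -1.11, SE 0.20, edgeR adjusted p = 0.0028). Of 11 neutrophil markers, 6 were at 0 in all 4 libraries, among them S100a8, S100a9 and Ly6g, and their sum was 4.82 to 5.99 FPKM in PA and 4.33 to 4.66 FPKM in LA. The sums were 0.75 to 1.11 FPKM in PA and 0.77 to 1.05 FPKM in LA for 15 markers of T, NK and B cells, 40.3 to 42.0 and 44.7 to 45.6 FPKM for 16 markers of stellate cells and fibroblasts, and 56.9 to 61.1 and 64.0 to 64.5 FPKM for 14 sinusoidal endothelial markers. The 11 cholangiocyte markers summed to 414 to 536 FPKM in PA and 645 to 685 FPKM in LA, nearly all from Spp1. The part that these cells had in the inflammatory result was not tested.

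Of the 10 largest changes higher in PA among protein-coding genes of at least 1 FPKM, 6 have been given (Il1b, Il6, Cxcl5, Ccl4, Ccl3 and Clec4e), and Myl2 is a light chain of heart muscle myosin that is given with other muscle genes further on. Bcl2a1d, an inhibitor of apoptosis induced by NF-κB, rested on 69 counts over PA and 0 over LA, at least 24.7-fold, and was not called when either the second PA (adjusted p of 0.13) or the first LA library (0.079) was left out. It shares 89.1% of its 31-base words with other genes. Guca2b, the peptide uroguanylin, stood at 1.06 and 1.16 FPKM in PA and at 0.11 and 0 FPKM in LA (edgeR adjusted p = 0.017), and lost its call without the second PA library or either LA library (adjusted p of 0.068 to 0.12). The matrix protease Mmp13, which cleaves fibrillar collagen, was another, at 1.84 and 1.94 FPKM in PA and at 0.16 and 0.13 FPKM in LA (log2 fold change 3.68, SE 0.32, edgeR adjusted p = 9.6e-06). Hmga1, a chromatin protein, was with Cd68 and Ccl2 among the 3 most abundant genes called higher in PA, at 271 and 287 FPKM in PA, 167 and 161 FPKM in LA and 293 and 296 FPKM in Vehicle (PA minus LA 0.75, SE 0.11, edgeR adjusted p = 0.00059), and 62.1% of its 31-base words occur in other genes.

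Acute-phase proteins were split. Of 31 tested, 2 were higher in PA and 1 was higher in LA, with a median of 0.02, and the 1 higher in LA (Serpina3n) was not called without the second PA library or without either LA library. Apcs, the serum amyloid P component, was measured at 20.8 and 15.7 FPKM in PA and at 7.63 and 6.12 FPKM in LA (log2 fold change 1.36, SE 0.22, edgeR adjusted p = 0.0014). Lipocalin-2 (Lcn2), which binds bacterial siderophores, stood at 181 and 180 FPKM in PA and at 92.4 and 105 FPKM in LA (log2 fold change 0.86, SE 0.11, edgeR adjusted p = 0.00022). Saa1, a classical acute-phase reactant, did not separate the groups: 354 and 312 FPKM in PA overlapped with 340 and 311 FPKM in LA (log2 fold change 0.02, SE 0.10, edgeR adjusted p = 0.94).

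Interferon-stimulated and antigen presentation genes gave 0 calls of 40 tested in either direction in the fit of all libraries, and 4 were at an adjusted p under 0.05 without the fold threshold, although 31 of the 40 log2 fold changes were positive (median 0.25). DESeq2 and limma called 0 of them as well, 18 had an unadjusted p under 0.05 in edgeR, and leaving out either PA+NTP library raised the edgeR calls to 3 higher in PA and 1 higher in LA. The replicate block gave 3 higher in PA and 0 in LA, a fit of the PA and LA libraries alone gave 4 and 1, the absence of a filter on low counts gave 5 and 0, and thinning to the smallest library gave 2 and 1.

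Of 38 tested genes of the unfolded protein response, 3 (7.89%) were called higher in PA and 0 higher in LA, 17 had an adjusted p under 0.05, and 30 log2 fold changes were positive (median 0.19). Pdia4, a disulfide isomerase, was measured at 124 and 123 FPKM in PA, 71.5 and 69.7 FPKM in LA and 69.6 and 68.0 FPKM in Vehicle (PA minus LA 0.79, SE 0.06, edgeR adjusted p = 1.8e-06). Creld2, a secreted ER stress protein, stood at 48.4 and 45.5 FPKM in PA and at 27.7 and 25.5 FPKM in LA (log2 fold change 0.80, SE 0.11, edgeR adjusted p = 0.0003). Sdf2l1, a cofactor of the chaperone BiP, was found at 21.7 and 23.9 FPKM in PA and at 14.1 and 13.2 FPKM in LA (log2 fold change 0.74, SE 0.12, edgeR adjusted p = 0.0016). In these genes no LA library reached a PA library, and 454 of the 455 genes called had no overlap in scaled counts.

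BiP itself (Hspa5), the most abundant member of this list, was measured at 1184 and 1207 FPKM in PA, 818 and 779 FPKM in LA and 593 and 558 FPKM in Vehicle. Its log2 fold change between PA and LA of 0.57 (SE 0.06, edgeR adjusted p = 4.2e-05) fell just short of the fold threshold. Hsp90b1 (0.42), Hyou1 (0.50), Manf (0.52) and Pdia6 (0.39) were likewise past the adjusted p but short of the fold. Xbp1 (-0.07), Herpud1 (-0.11) and Atf6 (-0.05), which belong to the sensing and degradation arms, had adjusted p-values of 0.42 to 0.61. An exact ER stress element (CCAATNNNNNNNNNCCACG, either strand) lay in the promoter of Creld2, 1 of the 3 called genes, and in those of 0.137% of all genes with an entry. It is shown, in capitals and on the opposite strand, because so few promoters hold it.
Creld2, chr15:88819480-88819578, plus strand: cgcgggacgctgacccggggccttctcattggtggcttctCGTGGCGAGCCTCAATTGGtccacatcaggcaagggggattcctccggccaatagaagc
This match does not overlap a match to any of the other 6 motifs searched. Most searches in the called genes of the other lists found no match. The antioxidant response element was found in 0 of 4 genes and the PPAR element in 0 of 4. The sterol response element was found in 0 of 1 cholesterol gene and 0 of 1 fatty acid synthesis gene, and the heat shock element in 0 of 1. The C/EBP-ATF response element was found in 1 of 3 genes (Vldlr). Of all genes with an entry, 14.0% held the antioxidant, 0.0481% the PPAR and 1.44% the sterol response element. The heat shock element lay in 0.662% and the C/EBP-ATF response element in 4.51% of them. With so few promoters searched, the counts cannot be told apart from these shares.

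**Figure D3:**
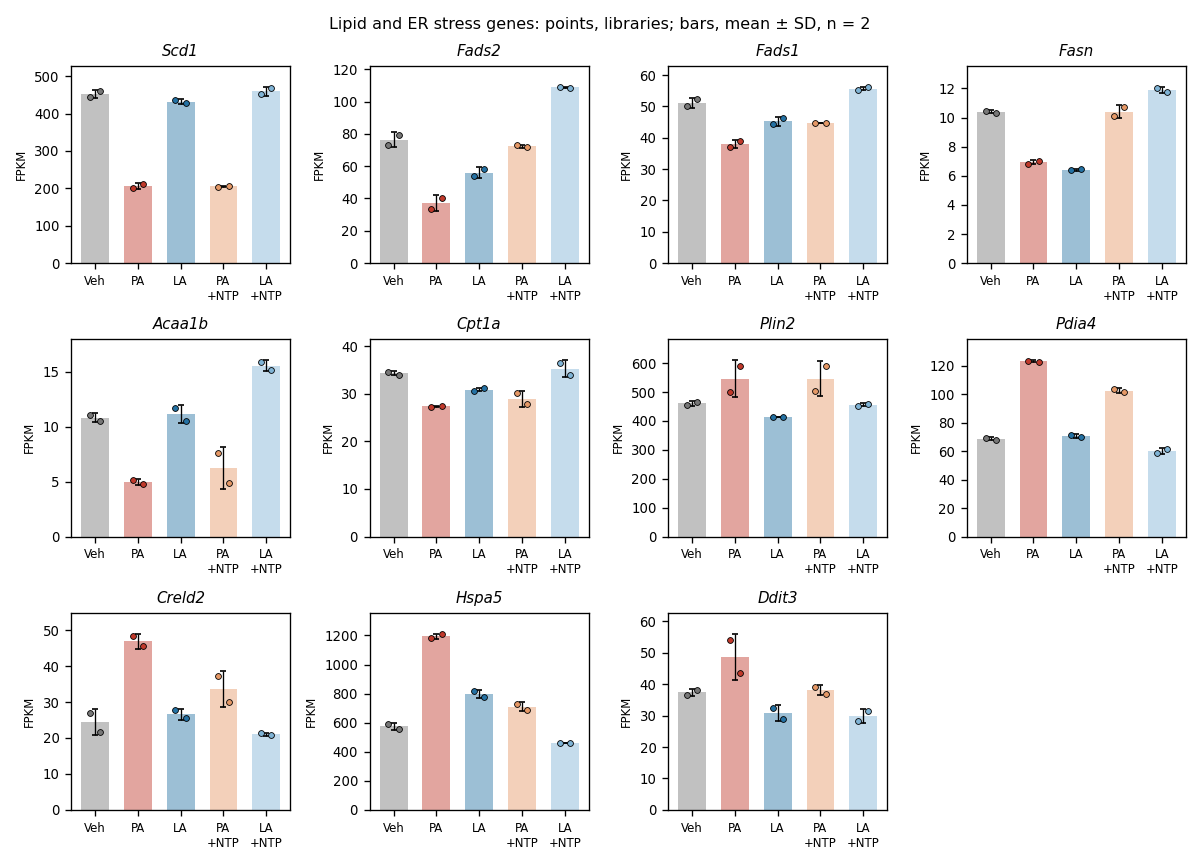
FPKM (y axis, linear and from 0 in each panel) of 11 lipid and ER stress genes in the 5 groups (x axis), with points for the 2 libraries and bars for the mean ± SD. Scd1 lies at 201 and 212 FPKM in PA and at 437 and 428 FPKM in LA, whereas Fasn and Cpt1a differ little between PA and LA.

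The integrated stress response, which runs through the transcription factor ATF4, gave 3 calls higher in PA of 43 tested genes and 0 in LA (median 0.16, 15 with an adjusted p under 0.05), and 1 was called without the first PA, the second PA or the second LA library. Ddit3, the transcription factor CHOP, was measured at 53.9 and 43.6 FPKM in PA and at 32.5 and 29.1 FPKM in LA (log2 fold change 0.63, SE 0.10, edgeR adjusted p = 0.0015), and it fell below the fold threshold without the first PA library (0.48) or the second LA library (0.55). Cebpb stood at 17.2 and 21.9 FPKM in PA and at 12.5 and 11.2 FPKM in LA (log2 fold change 0.73, SE 0.13, edgeR adjusted p = 0.0034), with an adjusted p of 0.099 without the second PA library. Atf4 (0.20), Trib3 (0.37) and Asns (0.25) were not called, and neither was the glutathione-degrading enzyme Chac1 (-0.17, edgeR adjusted p = 0.41). Vldlr was called at levels under 1 FPKM, and its adjusted p was above 0.05 without any 1 of 6 libraries (0.055 to 0.18).

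Antioxidant genes went both ways, with 3 of 46 tested higher in PA and 2 higher in LA. Without the second PA library 1 and 0 were called, without the second LA library 1 and 1, and without the first LA library 4 and 0. Sod2, the mitochondrial superoxide dismutase, was measured at 43.4 and 39.9 FPKM in PA, 26.0 and 25.7 FPKM in LA and 24.8 and 24.4 FPKM in Vehicle (PA minus LA 0.67, SE 0.06, edgeR adjusted p = 2.8e-05). Hmox1, the inducible heme oxygenase, stood at 75.1 and 77.9 FPKM in PA and at 51.7 and 48.4 FPKM in LA (log2 fold change 0.60, SE 0.07, edgeR adjusted p = 0.00013), so near the fold threshold that leaving out the second PA or the second LA library (0.57 and 0.55) ended the call. Vehicle (72.0 and 70.9 FPKM) lay close to PA for this gene. Nqo1, a standard target of NRF2, was not called (0.50, SE 0.14, edgeR adjusted p = 0.031).

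In the other direction, the genes higher in LA included products of the differentiated hepatocyte. Of 38 tested hepatocyte identity factors and secreted proteins, 9 (23.7%) were higher in LA and 1 was higher in PA, with 33 negative log2 fold changes and a median of -0.41. The 20 hepatocyte markers, of which 4 were higher in LA, summed to 8640 to 9627 FPKM in PA, 11531 to 11608 FPKM in LA and 11287 to 12067 FPKM in Vehicle, and their part in this result was not tested. Apoa1, the main protein of high-density lipoprotein, was measured at 208 and 181 FPKM in PA, 571 and 468 FPKM in LA and 547 and 440 FPKM in Vehicle. Both PA libraries were thus below every LA and Vehicle library, by a log2 fold change of -1.44 against LA (SE 0.14, edgeR adjusted p = 3.2e-05). Ahsg, the plasma protein fetuin-A, stood at 996 and 860 FPKM in PA and at 2206 and 2251 FPKM in LA (log2 fold change -1.27, SE 0.10, edgeR adjusted p = 4.8e-06).

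Serpina6, the corticosteroid-binding globulin, was found at 1.05 and 0.60 FPKM in PA and at 5.56 and 3.92 FPKM in LA, the largest change of this list (log2 fold change -2.70, SE 0.36, edgeR adjusted p = 0.00034). Transthyretin (Ttr), which carries thyroxine and retinol-binding protein, was measured at 33.0 and 23.0 FPKM in PA and at 58.9 and 52.0 FPKM in LA (log2 fold change -1.04, SE 0.16, edgeR adjusted p = 0.00074). The protease inhibitors Serpina1a, Serpina1b and Serpina1c (α1-antitrypsins) had log2 fold changes of -0.74, -0.99 and -0.88, but 65.2%, 44.7% and 85.8% of their 31-base words also occur in other genes, so the split of reads among them is uncertain. Serpinc1 (antithrombin, -0.87) and Apoh (-0.68) completed the 9.

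The change did not extend to every secreted protein. Albumin had a log2 fold change of -0.32 (edgeR adjusted p = 0.0066), short of the fold threshold, and transferrin of -0.07 (edgeR adjusted p = 0.58). The fetal protein Afp was the member higher in PA, at 3.02 and 3.62 FPKM against 2.03 and 1.96 FPKM in LA (log2 fold change 0.74, SE 0.18, edgeR adjusted p = 0.016), a call that was lost without either LA library or the second PA library (adjusted p of 0.079 to 0.18). Among the transcription factors, Hnf4a, a master regulator of hepatocyte genes, was measured at 37.2 and 41.6 FPKM in PA, 54.4 and 57.7 FPKM in LA and 67.1 and 66.6 FPKM in Vehicle. Its log2 fold change of -0.52 (edgeR adjusted p = 0.00016) did not reach the fold threshold. Foxa2 and Cebpa (0.12 each) had edgeR adjusted p-values of 0.36 and 0.33.

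Selenop, the selenium transporter of plasma, and Mup20, a major urinary protein, were with Ahsg the 3 most abundant genes called higher in LA. Selenop was measured at 2161 and 1936 FPKM in PA and at 3335 and 3348 FPKM in LA (log2 fold change -0.72, SE 0.07, edgeR adjusted p = 5e-05). Mup20 shares 64.5% of its 31-base words with other genes and had a log2 fold change of -0.74 (SE 0.12, edgeR adjusted p = 0.00097). Mup20 was measured at 1496 and 1240 FPKM in PA, close to 1428 and 1245 FPKM in Vehicle, and LA lay above both at 2461 and 2083 FPKM.

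**Figure D4:**
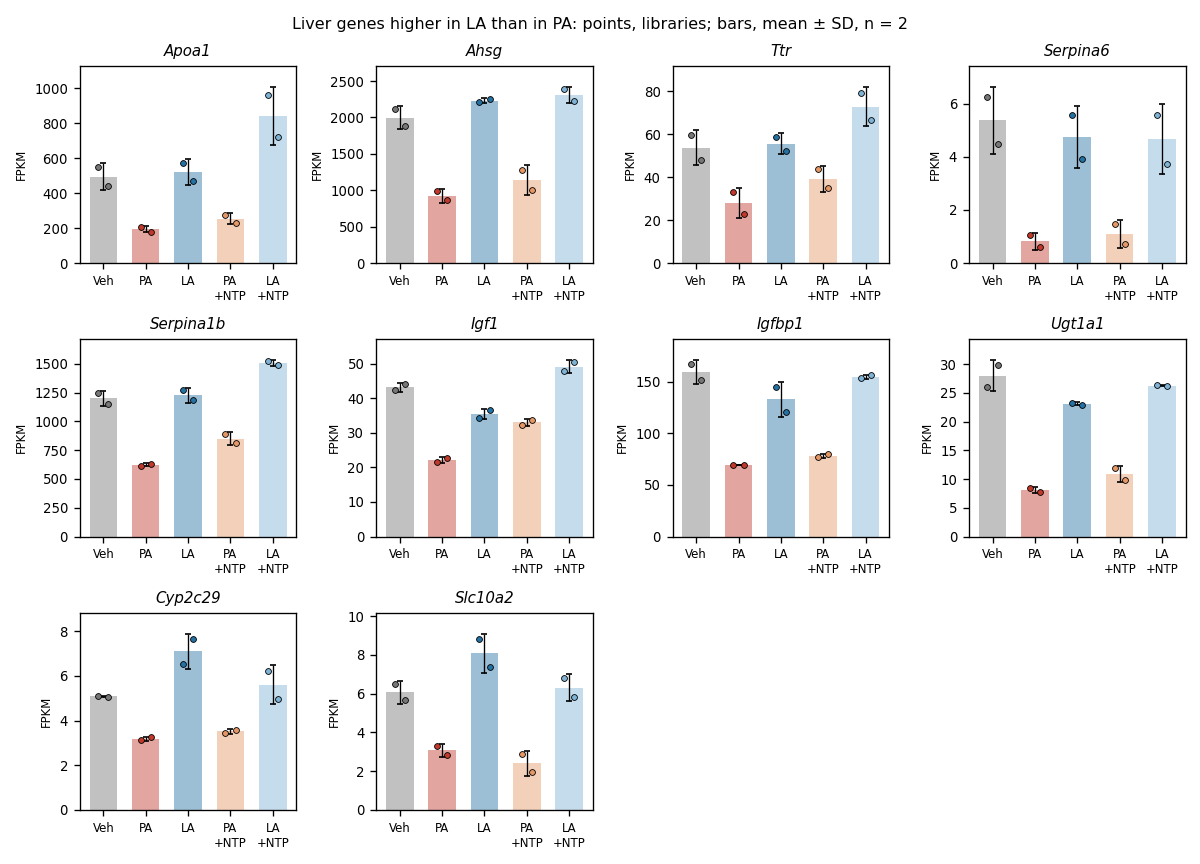
FPKM (y axis, linear and from 0 in each panel) of 10 liver genes in the 5 groups (x axis), with points for the 2 libraries and bars for the mean ± SD. The genes were picked from those called higher in LA, so that the order of PA and LA follows from the choice. In each panel both PA libraries lie below both LA libraries, as with Apoa1 at 208 and 181 against 571 and 468 FPKM. In these picked genes both PA+NTP libraries lie below both LA+NTP libraries, while 188 of all 288 genes higher in LA were called again with NTP.

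Of 26 tested genes of the insulin and IGF axis, 6 (23.1%) were higher in LA (Igf1, Igfbp1, Igfbp3, Ghr, Enho and Ceacam1). Another 19 were not called (list median -0.22), and 1 was higher in PA. The latter, Igfals, lost its call without the second PA library or either LA library. Igf1, the main endocrine target of growth hormone, was measured at 21.5 and 22.7 FPKM in PA, 34.4 and 36.5 FPKM in LA and 42.3 and 44.1 FPKM in Vehicle (PA minus LA -0.95, SE 0.08, edgeR adjusted p = 5.8e-06). The growth hormone receptor, Ghr, stood at 22.8 and 24.7 FPKM in PA and at 36.6 and 37.5 FPKM in LA (log2 fold change -0.61, SE 0.09, edgeR adjusted p = 0.00074), and missed the fold threshold without the first LA library (-0.58). Igfbp1 and Igfbp3, binding proteins that are adjacent on chromosome 11, had log2 fold changes of -0.96 (SE 0.08) and -0.93 (SE 0.14). Ceacam1, which promotes insulin clearance, was found at 6.11 and 5.03 FPKM in PA and at 9.79 and 9.29 FPKM in LA (log2 fold change -0.83, SE 0.09, edgeR adjusted p = 7.1e-05).

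Enzymes of drug and hormone metabolism gave many of the calls. Of 58 cytochrome P450 genes tested, 13 (22.4%) were higher in LA and 1 was higher in PA (median -0.40), but the 13 fell to 5 without the first LA library and to 8 without the second PA library. Cyp2c29, a member of the cluster on chromosome 19, was measured at 3.11 and 3.25 FPKM in PA and at 6.53 and 7.65 FPKM in LA (log2 fold change -1.16, SE 0.15, edgeR adjusted p = 0.00023). Cyp2c68 of the same cluster stood at 22.1 and 17.9 FPKM in PA and at 42.7 and 43.2 FPKM in LA (log2 fold change -1.14, SE 0.11, edgeR adjusted p = 4.1e-05), with 62.0% of its 31-base words shared. Cyp2e1, which oxidizes ethanol, was not called (0.14, edgeR adjusted p = 0.44).

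Cyp1a1, the classical target of the aryl hydrocarbon receptor, was the P450 higher in PA. It reached 1.11 and 0.66 FPKM in PA and 0.30 FPKM in both LA libraries (log2 fold change 1.5, SE 0.36, edgeR adjusted p = 0.016). The call did not stand without either LA library or the first PA library (adjusted p of 0.0749 to 0.0996).

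Of 44 conjugating enzymes (glutathione S-transferases, UGT and SULT), 8 (18.2%) were higher in LA and 0 were higher in PA (median -0.37), but 3 were called without the first LA library and 5 without the second PA library. Ugt1a1, the enzyme that conjugates bilirubin, was measured at 8.53 and 7.79 FPKM in PA, 23.3 and 22.9 FPKM in LA and 26.0 and 29.9 FPKM in Vehicle (PA minus LA -1.53, SE 0.09, edgeR adjusted p = 3.9e-07). Its 31-base words are shared to 81.3% with other genes, as the genes of this locus use common exons. Gstt1 stood at 30.4 and 33.0 FPKM in PA and at 55.0 and 48.9 FPKM in LA (log2 fold change -0.72, SE 0.08, edgeR adjusted p = 0.00011).

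Genes of bile acid handling had the lowest median of the lists drawn in the plot of gene lists (-0.48), with 4 of 19 tested (21.1%) higher in LA and 0 in PA. Slc10a2, a sodium-dependent bile acid transporter, was measured at 3.32 and 2.85 FPKM in PA and at 8.80 and 7.37 FPKM in LA (log2 fold change -1.43, SE 0.18, edgeR adjusted p = 0.0002). Abcb4, which exports phosphatidylcholine into bile, stood at 38.5 and 33.6 FPKM in PA and at 59.5 and 57.2 FPKM in LA (log2 fold change -0.71, SE 0.10, edgeR adjusted p = 0.00056). Baat, which conjugates bile acids with amino acids, had a log2 fold change of -1.12 (SE 0.20, edgeR adjusted p = 0.0026). Without the second PA library, 2 of the 4 were called, and Baat had an adjusted p of 0.067. The nuclear receptor FXR (Nr1h4) was not called, at -0.48 (edgeR adjusted p = 0.033), and its target Nr0b2 lay under 1 FPKM in these 4 libraries (-1.16, edgeR adjusted p = 0.097).

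Glucose metabolism was divided, with 5 of 50 tested genes higher in LA, 2 higher in PA and a median of -0.02. Leaving out any 1 of the 4 PA and LA libraries left 2 or 3 genes higher in LA, and without the first PA or the first LA library 1 was higher in PA. Pklr, the pyruvate kinase of the liver, was higher in PA, at 151 and 156 FPKM in PA, 90.7 and 95.7 FPKM in LA and 116 and 121 FPKM in Vehicle (PA minus LA 0.71, SE 0.06, edgeR adjusted p = 6.1e-06). The level of Pklr in Vehicle thus lay between those in PA and LA. Pck1, which opens gluconeogenesis, is also among the hepatocyte markers. It was measured at 0.22 FPKM in both PA libraries and at 0.32 and 0.22 FPKM in LA (edgeR adjusted p = 0.76).

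The p53 target Cdkn1a, an inhibitor of the cell cycle, was lower in PA (93.4 and 105 FPKM) than in LA (120 and 127 FPKM) by less than the fold threshold (log2 fold change -0.32, SE 0.09, edgeR adjusted p = 0.039). Of 44 tested genes of amino acid catabolism, DESeq2 called 2 higher in LA and limma called 1. The edgeR test called 6 higher in LA and 0 in PA (median -0.17). In this list 0 genes were called without the second PA library, 1 was called without the first LA library, and 3 without either Vehicle library. Of 30 YAP target and cytoskeletal genes, 4 were higher in LA (Acta1, Cnn1, Thbs1 and Tuba1a) and 0 in PA, and 7 without the first PA library. Thrombospondin-1 (Thbs1), a matrix protein, was measured at 12.7 and 10.8 FPKM in PA and at 20.7 and 20.4 FPKM in LA (log2 fold change -0.83, SE 0.07, edgeR adjusted p = 1e-05). Of 30 tested immediate-early genes, Fos and Fosb, subunits of AP-1, were lower in PA, at 1.41 and 1.44 FPKM against 3.23 and 2.86 FPKM for Fos (log2 fold change -1.11, SE 0.21, edgeR adjusted p = 0.0043), which had an adjusted p of 0.067 without the second PA library.

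The enzymes that act on fatty acids differed at few points. Scd1 (NCBI gene 20249, chr19:44394450-44407709), the desaturase that turns palmitate and stearate into monounsaturated fatty acids, was measured at 201 and 212 FPKM in PA and at 437 and 428 FPKM in LA. Vehicle stood at 444 and 459 FPKM, so that both PA libraries lay below the 4 libraries of the other groups while LA lay just below Vehicle. The log2 fold change between PA and LA was -1.08 (SE 0.06, edgeR adjusted p = 1.7e-07). Fads2, the desaturase that acts first on linoleate, was found at 33.5 and 40.4 FPKM in PA, 53.7 and 58.4 FPKM in LA and 73.2 and 79.5 FPKM in Vehicle (PA minus LA -0.60, SE 0.08, edgeR adjusted p = 0.00034). The fold of Fads2 was under the threshold without the first PA library (-0.49) or the second LA library (-0.54).

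These were the 2 calls among 31 tested genes of fatty acid synthesis and desaturation, whose median was -0.02. Fads1, which is encoded beside Fads2, stood at 37.0 and 38.8 FPKM in PA and at 44.2 and 46.3 FPKM in LA (log2 fold change -0.27, SE 0.06, edgeR adjusted p = 0.0085). Fasn, the fatty acid synthase, was measured at 6.83 and 7.04 FPKM in PA and at 6.38 and 6.47 FPKM in LA, beside 10.5 and 10.3 FPKM in Vehicle, and its log2 fold change between PA and LA of 0.10 (SE 0.06) did not pass the test (edgeR adjusted p = 0.35). The regulator Srebf1 (-0.04, SE 0.09) and the elongase Elovl6 (0.15, SE 0.10) did not pass either. In both Fasn and Srebf1 the PA and LA libraries lay below Vehicle. Srebf1 stood at 14.5 and 14.1 FPKM in Vehicle, at 9.36 and 10.0 FPKM in PA and at 9.93 and 9.88 FPKM in LA. These gaps from Vehicle carry the difference between the libraries in their relation to GC content, and its part in them was not tested.

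Of 35 tested PPARα targets, 2 were higher in PA and 4 higher in LA (median -0.03), and the 2 fell to 0 without the second PA or the second LA library and to 1 without the first LA library. Acaa1b, a peroxisomal thiolase that shares 50.1% of its 31-base words with other genes, stood at 5.13 and 4.76 FPKM in PA and at 11.7 and 10.5 FPKM in LA (log2 fold change -1.20, SE 0.16, edgeR adjusted p = 0.00027). Hilpda, a lipid droplet protein that inhibits lipolysis, was higher in PA, at 15.1 and 15.3 FPKM against 9.42 and 8.56 FPKM in LA (log2 fold change 0.74, SE 0.16, edgeR adjusted p = 0.0084), with adjusted p-values of 0.074 and 0.069 without the second PA or the second LA library.

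Several widely used readouts of PPARα were not called. Cpt1a, the gate of mitochondrial fatty acid uptake, was measured at 27.3 and 27.4 FPKM in PA and at 30.6 and 31.1 FPKM in LA (log2 fold change -0.19, SE 0.06, edgeR adjusted p = 0.058). Pdk4 (0.12, SE 0.14), Angptl4 (0.11, SE 0.09), Cd36 (-0.02, SE 0.06) and Fgf21 (-0.53, SE 0.68) had adjusted p-values of 0.53 to 0.85. Plin2, the main coat protein of lipid droplets, stood at 501 and 591 FPKM in PA, 412 and 413 FPKM in LA and 455 and 466 FPKM in Vehicle. Its log2 fold change of 0.39 (SE 0.08, edgeR adjusted p = 0.0086) was under the fold threshold. The groups did not overlap, but neither did the scaled counts of PA and LA for 52.2% of all genes tested.

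Among the 10 largest changes higher in LA, Cxcl13, a chemokine of B cells, went against the other chemokines, at 0.40 and 0.87 FPKM in PA and at 3.02 and 2.87 FPKM in LA (log2 fold change -2.05, SE 0.31, edgeR adjusted p = 0.00084, and -2.89 without the second PA library). Another 8 of the 10 were S100g, Serpina6, Cyp2a4, Selenbp2, Fabp7, Car3, Cd24a and Dpys, with log2 fold changes from -4.90 to -1.77. Of the 31-base words of Cyp2a4 and Selenbp2, 58.9% and 59.3% occur in other genes. S100g, a calcium-binding protein, rested on 2 counts in PA against 70 in LA, a ratio of 32.6 with an exact 95% interval of 8.7 to 275. Leaving out the second PA library lifted the adjusted p above 0.05 for S100g, Cyp2a4, Selenbp2, Fabp7, Car3 and Cd24a (0.12 to 0.32), and leaving out the first LA library did so for the last 5 of these (0.058 to 0.19).

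Lists with 0 calls in edgeR were ceramide and sphingolipid enzymes (0 of 32 called, median 0.04), the circadian clock (0 of 19, -0.01), mitochondrial biogenesis and dynamics (0 of 36, 0.02), nuclear genes of oxidative phosphorylation (0 of 80, 0.03), the mitochondrial ribosome (0 of 78, 0.10), cytosolic ribosomal proteins (0 of 80, 0.12) and proteasome subunits (0 of 50, 0.16). By the same test, between 0 and 12 members of each passed the adjusted p without the fold threshold and between 4 and 27 had an unadjusted p under 0.05. DESeq2 called 0 in all 7 lists, and limma called 1 gene of the cytosolic ribosome and 0 in the others. Without the second PA library edgeR called 1 cytosolic ribosomal protein, and without either PA+NTP library or the second LA library it called 1 gene of the mitochondrial list. Ppargc1a, a coactivator that drives mitochondrial biogenesis, stood at 1.35 and 1.38 FPKM in PA and at 1.44 and 1.32 FPKM in LA (log2 fold change -0.03, SE 0.14, edgeR adjusted p = 0.94). Its relative Ppargc1b was measured at 0.72 and 0.88 FPKM in PA, 0.49 and 0.65 FPKM in LA and 1.27 and 1.17 FPKM in Vehicle, and PA did not differ from LA beyond the threshold (log2 fold change 0.52, SE 0.22, edgeR adjusted p = 0.15). Sptlc2, which starts ceramide synthesis from palmitoyl-CoA, was measured at 37.6 and 38.3 FPKM in PA and at 33.8 and 33.9 FPKM in LA (log2 fold change 0.15, SE 0.05, edgeR adjusted p = 0.089). Degs1, which finishes it, had a log2 fold change of 0.19 (SE 0.07, edgeR adjusted p = 0.093). Of 32 cholesterol genes, 1 was higher in LA (Abcg8, and 2 genes without either PA+NTP library or the second LA library) and 0 in PA, and Insig1 was not called (-0.07, SE 0.13, edgeR adjusted p = 0.81).

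Other lists had few calls on both sides. Of 31 tested genes of fatty acid oxidation and ketogenesis, 0 were higher in PA and 2 were higher in LA (Bdh1 and Scp2, list median -0.13), and of 32 genes of triglyceride synthesis and lipid droplets, 0 and 2 (Mgll and Tm6sf2, 0.03). Fatty acid uptake and activation gave 1 higher in PA (Fabp5) and 2 higher in LA (Acsm1 and Fabp7) of 25 tested (-0.19). The cytosolic heat shock response gave 1 call in PA of 25 (Hspa1a, 0.10), p53 targets and the BCL2 family gave 1 in each direction of 39 (Bcl2a1d and Bmf, 0.01), and autophagy and lysosome genes gave 1 in each direction of 46 (Gla and Atp6v0d2, 0.09). Cell cycle genes gave 1 in LA of 33 (Mki67, -0.02), major urinary proteins 1 in LA of 18 (Mup20, -0.25) and SLC25 carriers 2 in LA of 42 (Slc25a23 and Slc25a47, 0.02). Collagens, laminins and integrins gave 1 in PA (Col20a1) and 4 in LA (Col14a1, Col4a5, Itga9 and Lamb2) of 53 (-0.09). Zfp zinc finger proteins gave 1 in PA (Zfp991) and 2 in LA (Zfp39 and Zfp41) of 360 (-0.01). Each of these 11 lists gained or lost a call when 1 library was left out. Oxidation, triglyceride synthesis, p53 and cell cycle genes had 0 calls without the second PA library, and collagens, laminins and integrins then had 0 in PA and 2 in LA. Hspa1a was not called without the first PA or either LA library, and SLC25 carriers had 1 call without any 1 of the Vehicle, PA or LA libraries.

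The libraries pretreated with NTP hold the same pair of fatty acids and share no library with PA or LA, and they asked whether the order of the fatty acids was found again. In this second pair of groups, 194 genes were higher in PA+NTP and 345 higher in LA+NTP, which are 1.38% and 2.45% of the genes tested, and the 539 calls fell to 346 without the first LA+NTP library. Of the 167 genes higher in PA, 150 (89.8%) had a log2 fold change of the same sign with NTP and 86 (51.5%) were called again, and these 86 made 44.3% of the 194. Of the 288 genes higher in LA, 280 (97.2%) had the same sign and 188 (65.3%) were called again, which made 54.5% of the 345. Over all genes tested, 51.5% were positive and 48.4% negative with NTP. The median log2 fold change of the genes higher in PA was 0.97 without and 0.69 with NTP, and that of the genes higher in LA -0.89 without and -0.77 with NTP. The first of each of these pairs comes from the libraries in which the genes were chosen.

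**Figure D5:**
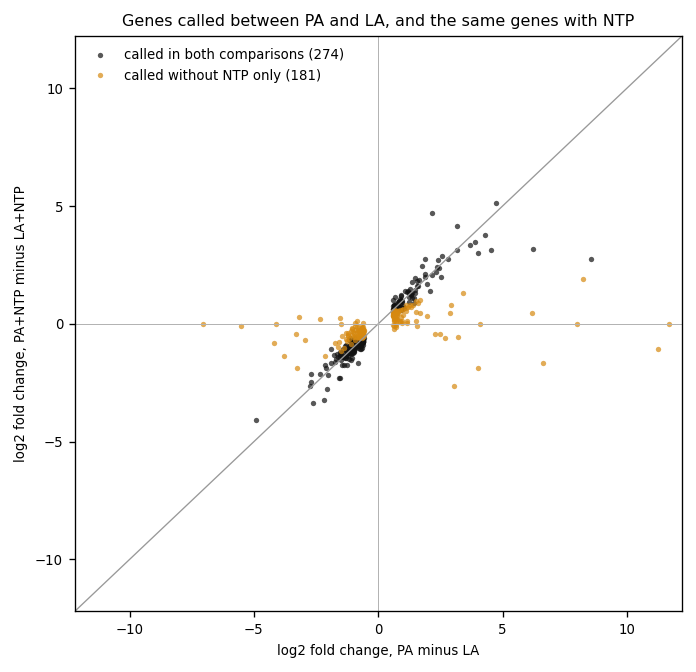
Log2 fold change of PA minus LA (x axis) against that of PA+NTP minus LA+NTP (y axis) for the 455 genes called between PA and LA, with the line of equal change. The 274 genes called in both comparisons (black) have the same sign on both axes, and genes called only without NTP are drawn in orange.

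Ccl2 was measured at 478 and 472 FPKM in PA+NTP and at 163 and 170 FPKM in LA+NTP (log2 fold change 1.48, edgeR adjusted p = 3.8e-09), and Scd1 at 204 and 206 FPKM in PA+NTP and at 451 and 468 FPKM in LA+NTP (-1.19, edgeR adjusted p = 4.2e-08). Apoa1 (-1.76), Ugt1a1 (-1.30), Igf1 (-0.60), Pdia4 (0.74) and Il6 (5.11) were called in the same direction. The inflammatory list had 14 members higher in PA+NTP and 1 higher in LA+NTP, and the hepatocyte list 0 and 14. Among the interferon-stimulated genes 11 of 40 were higher in PA+NTP and 0 in LA+NTP, against 0 and 0 without NTP. The difference between the contrast without and with NTP was tested for each gene in the same model, and 0 genes passed in edgeR (smallest adjusted p of 0.17, 1029 genes with an unadjusted p under 0.05), while DESeq2 called 5 and limma 3 to 5. A difference between the contrasts was thus not shown for the interferon-stimulated genes. Leaving out the second PA library gave 5 genes in edgeR, and without the second PA+NTP library it called 2.

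Finally, the level in Vehicle was set beside both fatty acids, with the limit that the PA and LA libraries differ from Vehicle in their relation to GC content. Among the 167 genes higher in PA, the median log2 fold change was 0.86 for PA minus Vehicle and -0.25 for LA minus Vehicle. Among the 288 genes higher in LA, it was -0.89 for PA minus Vehicle and 0.10 for LA minus Vehicle. These comparisons share the PA, LA and Vehicle libraries with each other and are given as levels only.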

How the data were processed

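Total RNA was sequenced from primary mouse hepatocytes, 10 libraries in 5 groups of 2, and the groups and replicate numbers follow the labels, since the numbers in the deposited files differ from them. The authors deposited 1 table per library with an expected count and an FPKM per gene, for which the submitters' processing notes name HISAT, Bowtie2, RSEM and the mm10 build without versions. Genes not listed for a library were set to 0, and the lowest FPKM listed was 0.01. Expected counts were rounded to whole numbers. The total counts per library ranged from 13142588 to 60046937 over the series.

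Genes were tested with the quasi-likelihood test of edgeR 4.0.16 (R 4.3.3) on all 10 libraries with 1 term per group, TMM scaling (factors 0.977 to 1.04) and filterByExpr, which kept 14097 of 18055 genes. Standard errors were the log2 fold change over the root of its F statistic. Calls required a difference of 1.5-fold or more and an adjusted p (Benjamini-Hochberg) below 0.05. Of the gene IDs, 17998 matched the RefSeq table by ID and 11 by accession, and 46 did not match. Exact permutation of 2 against 2 libraries cannot give a p below 0.333, so that no such test was run. The scripts were tested on simulated data.

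The members and the gene lists were chosen with earlier results of these data known, so that no list is independent support. The genes named were the 10 largest changes in each direction among protein-coding genes of at least 1 FPKM without overlap, the 3 most abundant of these, up to 8 called genes of each list by size, and a fixed set of lipid, stress and liver genes. Some genes that the rule names are not reported here. List members, markers and single genes named beyond this rule were chosen after their values were seen. Sharing of sequence was measured as the percent of a gene's 31-base words that occur in GENCODE M21 transcripts of other genes. Of the 149 named genes, 26 passed 20%, and the share is not printed for each of them. Promoter windows came from RefSeq (GRCm38.p6). Alternatives were DESeq2 1.42.0, limma 3.58.1 on log2(FPKM + 1) and log2(FPKM + 0.1), other scalings and filters, removal of GC and length trends, thinning, a replicate block, the NOISeq rule in own code, and each library left out in turn. Where that left a group with 1 library, its spread was taken from the other groups. Intervals and floors on counts cover counting error only.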

Additional observations from a re-analysis of the deposited data

How the results depend on the processing

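Against 167 genes higher in PA and 288 higher in LA, 108 genes were higher in PA when a mean of 1 FPKM was required, a filter under which 11174 genes were tested. limma on log2(FPKM + 1) gave 137 higher in LA, and 295 calls against 539 between PA+NTP and LA+NTP. Dropping the fold threshold gave 788, 781 and 2082 calls. The NOISeq rule gave 3 and 8 genes at a probability of 0.95 and 81 and 133 at 0.8. Leaving out 1 library at a time gave 99 (without the second PA library) to 175 genes higher in PA, 142 (likewise) to 335 higher in LA, 346 to 614 calls between PA+NTP and LA+NTP, and 0 to 5 for the difference between the contrasts. That difference gave 41 calls with no filter on low counts, 1 with the replicate block, 1 with the length trend removed, 2 with the block and the GC trend removed, 5 with DESeq2, and 5 and 3 with limma at pseudocounts of 1 and 0.1. The cause of these shifts was not tested. The labels give the groups the same replicate numbers, but same-numbered libraries did not deviate together (correlations of -0.08 to 0.13 over 10 pairs of groups, 0.04 for PA and LA), and the replicate block gave 175 and 303 calls between PA and LA and 572 with NTP. Of the 122 named genes called, 51 were called under every alternative, 0 changed sign, 49 lost the call in an alternative that left out no library and 68 in one that left out a library. Limits are the 2 libraries per group, the shallow first PA library, and doses that differ with the fatty acid.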

Other observations

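Outside the gene lists, and chosen after their values were seen, several enzymes and immune genes were higher in PA. Nat8f2, of the family of N-acetyltransferases, was measured at 109 and 97.5 FPKM in PA, 36.0 and 32.6 FPKM in LA and 36.6 and 32.0 FPKM in Vehicle (log2 fold change PA minus LA 1.58, SE 0.11, edgeR adjusted p = 1.8e-06). Ces2c, a carboxylesterase, stood at 26.9 and 29.6 FPKM in PA and at 10.2 and 9.96 FPKM in LA (1.48, SE 0.09, edgeR adjusted p = 3.9e-07). Both lay near Vehicle in LA. Of their 31-base words, 28.0% (Nat8f2) and 50.1% (Ces2c) occur in other genes. Ubd, a ubiquitin-like protein induced by cytokines, was found at 164 and 142 FPKM in PA, 89.1 and 83.8 FPKM in LA and 63.9 and 51.1 FPKM in Vehicle (0.80, SE 0.09, edgeR adjusted p = 0.00011). With NTP these genes were again higher with palmitate, by 1.62, 1.29 and 0.92 on the log2 scale.

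Genes of heart muscle were detected at low levels in both PA libraries. Myl2 was measured at 1.5 and 1.73 FPKM in PA and at 0.10 and 0.07 FPKM in LA, and was not listed in Vehicle. Its summed counts were 53 in PA and 3 in LA, a ratio of 19.0 after library size with an exact 95% interval of 6.14 to 94.8 that covers counting error only. The edgeR adjusted p was 0.0072, and it was above 0.05 without the second PA library or either LA library (0.061 to 0.10). Mb (myoglobin) stood at 0.90 and 0.96 FPKM in PA and was not listed in LA and Vehicle. Myh6, a myosin heavy chain of the heart, was found at 0.72 and 0.88 FPKM in PA and at 0.11 and 0.08 FPKM in LA, and Myl3 at 0.69 and 0.76 against 0.04 and 0.05 FPKM. Tnnt2, a cardiac troponin, was measured at 2.21 and 1.58 FPKM in PA and at 0.26 and 0.41 FPKM in LA, beside 0.50 and 0.44 FPKM in Vehicle. In the PA+NTP libraries Myl2, Mb, Myl3 and Myh6 were not listed, and Tnnt2 stood at 0.46 and 0.39 FPKM there against 0.74 and 0.43 FPKM in LA+NTP. Rn28s1, a ribosomal RNA, was listed at 2.58 and 2.82 FPKM in PA and was not listed in LA and Vehicle. Mir686 was measured at 16.13 and 21.03 FPKM in PA and at 51.0 and 57.8 FPKM in LA, against 2.29 and 0 FPKM in Vehicle. It has only 79 31-base words, of which 100% occur in other genes, so the assignment of reads to it is uncertain.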
